A study of Macaca mulatta with 304 samples.

Results

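Day 40 is the blood draw 40 days after thoracic irradiation, and it was compared with the control blood of the same animal. The members were chosen from the sample labels: every animal with both a Day 40 sample and an unirradiated control sample, each Day 40 sample being paired with its own control. This gave 24 of the 28 animals and 48 of the 304 samples of the series.

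The animals were healthy adult rhesus macaques (Macaca mulatta) of a Chinese sub-strain, whose thorax was irradiated with a linear accelerator at 9.8 Gy in 12 animals and at 10.7 Gy in the other 12. Each dose group held 6 females and 6 males, and the control blood was drawn at Day −2. Whole blood was taken from a peripheral vein into RNA-preserving tubes, and total RNA depleted of ribosomal RNA was sequenced. All animals were given a painkiller in the first weeks, tramadol or, where it was refused or did not suffice, buprenorphine, and dexamethasone was given for fast breathing. The labels do not say which animals received which drug by Day 40. No unirradiated animal was drawn on Day 40, so that radiation cannot be told apart from handling, drugs, repeated bleeding and the passing of time. For 3 animals of 10.7 Gy, named B2005, B2007 and B2503 in the labels, Day 40 was the last draw.

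Whole blood RNA is a mixture. Lymphocytes (B cells, T cells and natural killer cells) are among the most radiosensitive blood cells, and blood passing through the chest during exposure is irradiated with the lung. Neutrophils, monocytes and eosinophils are replaced from the bone marrow within days, and red cell precursors that leave the marrow early carry globin RNA. Radiation injury of the lung, pneumonitis, develops over weeks and draws in monocytes, macrophages and neutrophils. In bulk blood, fewer cells of a type and less of an RNA per cell cannot be told apart.

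Control libraries held 6676757 to 14609879 counts and Day 40 libraries 6133835 to 8874096. Library names in the labels end in a number. It was at least 19 and under 190 (low numbers) in 20 controls and 0 in 4, whereas on Day 40 it was over 190 (high numbers) in 11 libraries and 0 in 13, so that 4 animals (B2003, B2005, B2503 and B2504, all 10.7 Gy) had 0 in both. The change from control moved with the GC content of genes, and it did so in every pairing of library numbers. Across genes, Pearson's r between GC content and log2 change was −0.25 in the 11 animals that went from low to high numbers, −0.48 in the 9 animals that went from low numbers to 0, and −0.22 in the 4 animals with 0 in both. The part of library handling in the results was not tested, and gene results are given with and without a GC offset where the call depends on it. The Day 40 library of B2007 stood apart from all others, since on the first principal component (24.7% of the variance) it scored 174, with the other Day 40 libraries between −20.2 and 52.05 and the controls between −44.2 and 46.5. ALAS2, the first enzyme of haem synthesis in red cell precursors, took 10.9% of its counts, against at most 1.55% in any other of the 48 libraries. Summed Y chromosome genes matched the labelled sex in all 48 libraries. Markers of B cells, T cells, monocytes, neutrophils, platelets and red cells were present throughout, whereas of the list of lung, stroma and endothelium 4 genes passed the filter. SFTPC and EPCAM, epithelial genes of that list, had at most 2 counts in any library, while SFTPB, another surfactant protein gene, was 2.06 to 6.90 CPM in controls and 1.55 to 6.44 CPM on Day 40.

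**Figure D1:**
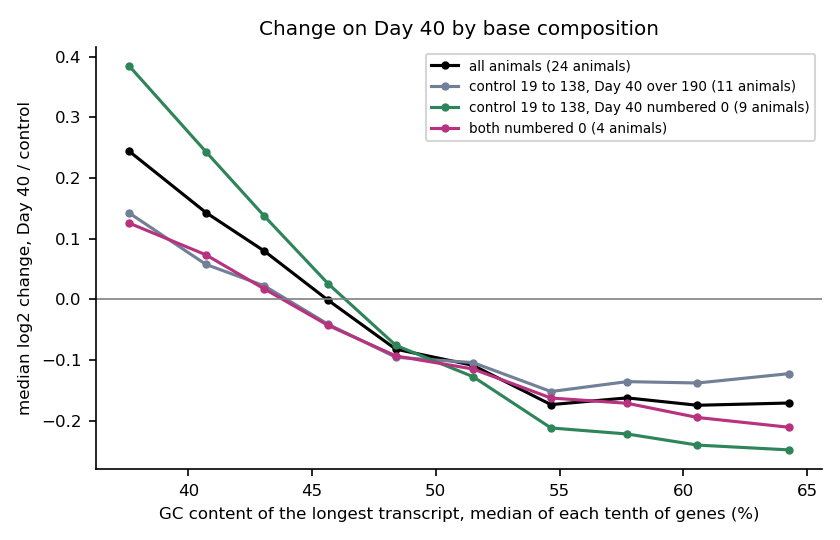
Median log2 change from control to Day 40 (vertical axis) in 10 equal groups of the tested genes ordered by GC content (horizontal axis), for all 24 animals and for each pairing of library numbers. The lines fall from left to right in each group, from 0.38 to −0.25 in the 9 animals that went from low library numbers to 0, and from 0.14 to −0.12 in the 11 animals that went from low to high numbers.

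On Day 40, 951 of 13751 tested genes (6.92%) differed from the animals' own controls at an adjusted p of 0.05 and a fold of 1.5 in edgeR's quasi-likelihood test with Benjamini-Hochberg adjustment. Of these, 559 (4.07%) were higher and 392 (2.85%) were lower, and the median log2 change over all tested genes was −0.03. Some genes of monocytes, interferon-induced genes, receptors for microbial products and complement, and globin genes were among those that rose. Some genes of naive and other T cells, the B cell gene CD79A, and AXIN2, NKD2 and NOG were among those that fell. Without B2007 the count was 795 (5.78%), with 502 higher (3.65%) and 293 lower (2.13%). With a GC offset it was 769 (5.59%), with 592 higher (4.31%) and 177 lower (1.29%). A set of 521 genes was called in all of these fits, and 500 of them changed in the same direction in the 4 animals with both libraries numbered 0 and in the 11 animals with high Day 40 numbers. Those animals are among the 24 from which the genes were called, so the shared direction is no independent evidence. In the 11 animals alone, 209 of the 951 genes were called in the same direction. TMM scaling called 668 genes higher and 293 lower, and DESeq2 called 710 higher and 273 lower, so that the share of higher genes depended on the scaling. Of the 951 called genes, 454 moved in 1 direction in at least 22 of the 24 animals, and genes that were not called are not part of this count.

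The gene with the largest rise among those moving alike in at least 22 animals was CSTA, which encodes the cysteine protease inhibitor cystatin A and lies on Mmul_10 chromosome 2 at 153970849 to 153987384. On a scale of counts corrected for depth (CPM, on which genes of different length are not compared), CSTA was 0.0698 to 2.31 in controls (median 0.894) and 1.06 to 7.57 on Day 40 (median 3.12). It was higher in 24 of 24 animals, by 1.92 ± 0.18 (log2, SE) with an adjusted p of 3.71e-08, although the lowest Day 40 libraries lay within the range of the controls. SUCNR1, the succinate receptor, rose in 23 of 24 animals from a median of 2.97 CPM (1.37 to 18.4) to 11.3 CPM (3.26 to 69.4), a log2 change of 1.88 ± 0.22. PMP22, a myelin protein that is also made outside nerves, rose in 23 of 24 animals from a median of 0.461 CPM (0 to 2.17) to 1.59 CPM (0.306 to 3.46). CSTA, SUCNR1 and PMP22 belong to a list of 10 genes taken from earlier results on these animals, of which 3 rose and 3 fell here, so their direction is not independent evidence.

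CDKN1C, an inhibitor of cyclin-dependent kinases, lies on chromosome 14 at 2946560 to 2949199. It was 3.45 to 50.9 CPM in controls (median 19.9) and 17 to 213.9 CPM on Day 40 (median 65.4). The groups overlapped, but 23 of 24 animals were above their own control, with a log2 change of 1.71 ± 0.16 (adjusted p = 2.23e-08). Without B2007 the change was 1.80, and with a GC offset 1.88. TCF7L2, a transcription factor of the Wnt pathway, rose in 22 of 24 animals from a median of 19.2 CPM (5.97 to 42.7) to 53.4 CPM (11.6 to 84.2), by 1.41 ± 0.16. HTR7, a serotonin receptor, rose by 1.70 ± 0.18 and TPPP3, a tubulin-binding protein, by 1.71 ± 0.24, each in 22 of 24 animals. MBOAT2, an acyltransferase of membrane lipids, was higher in 24 of 24 animals (1.40 ± 0.20), although in the 4 animals with both libraries numbered 0 the change was 0.42.

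**Figure D2:**
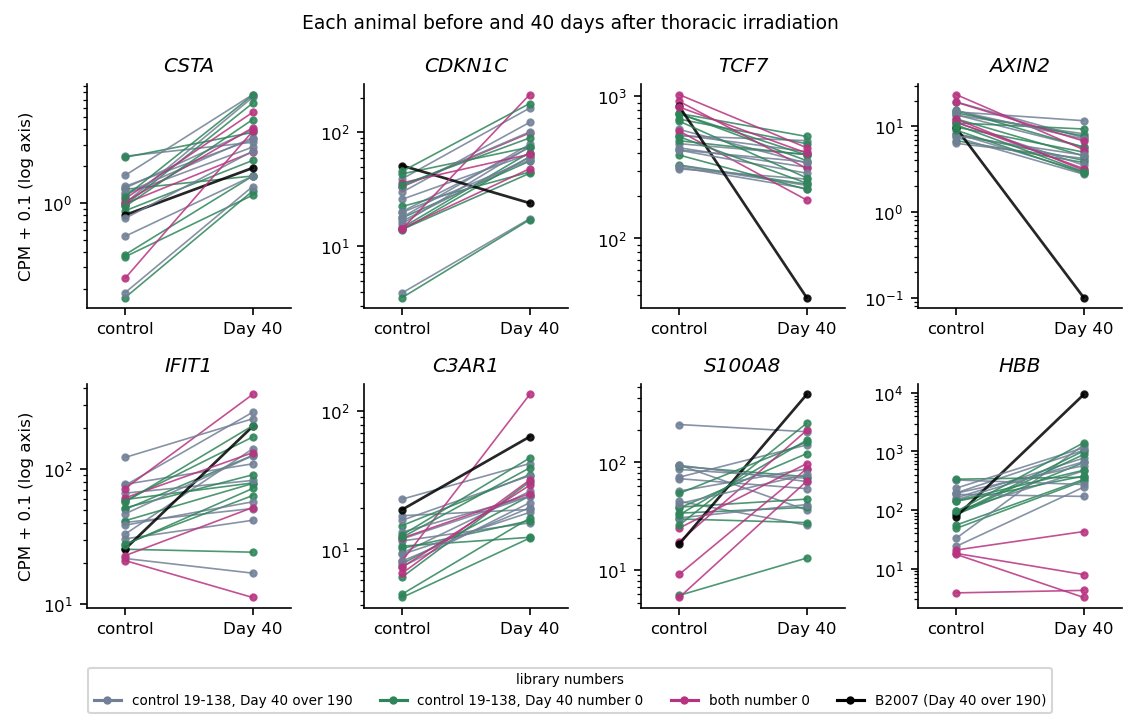
CPM plus 0.1 (log axis) of CSTA, CDKN1C, TCF7, AXIN2, IFIT1, C3AR1, S100A8 and HBB in the control and Day 40 sample of each of 24 animals, joined by a line per animal and coloured by library numbers, with B2007 in black. CSTA and C3AR1 rise in 24 of 24 animals, TCF7 and AXIN2 rise in 0 of 24, and HBB rises in 20 of 24, with Day 40 levels of at most 42.8 in the 4 animals with both libraries numbered 0.

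Among the 8 genes that fell most under the naming rule were AXIN2, NKD2, NOG and FZD10, which were on no gene list. AXIN2, a negative regulator of Wnt signalling and itself a Wnt target, lies on chromosome 16 at 61924121 to 61957598. It was 6.24 to 23.4 CPM in controls (median 11.1) and 0 to 11.6 CPM on Day 40 (median 4.47). No animal was above its own control, and the log2 change was −1.29 ± 0.14 (adjusted p = 1.96e-07). NKD2, another Wnt inhibitor, also fell in 24 of 24 animals, from a median of 21.9 CPM (8.91 to 54.1) to 9.22 CPM (0.306 to 16.6), by −1.23 ± 0.15 on the log2 scale. NOG, which encodes the BMP antagonist noggin, went from a median of 13.4 CPM (6.36 to 33.5) to 6.12 CPM (2.45 to 13.3), with a log2 change of −1.26 ± 0.13 and 0 of 24 animals higher. FZD10, a Wnt receptor, was of low level and went from a median of 2.4 CPM (0 to 5.5) to 1.08 CPM (0 to 4.11). FZD10 fell by 1.29 on the log2 scale (SE 0.20) with 1 animal higher. With a GC offset the log2 changes were −1.14 for AXIN2, −1.08 for NKD2, −1.11 for NOG and −1.12 for FZD10, and in libraries with high numbers they were −1.21, −1.12, −1.13 and −0.91.

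The other strong falls were, like that of FZD10, in genes of low level. TMEM25, a membrane protein of the immunoglobulin superfamily, was 0.962 to 4.15 CPM in controls (median 2.56) and 0.148 to 2.33 CPM on Day 40 (median 0.852), with 1 animal higher and a log2 change of −1.46 ± 0.19. FAM241B (−1.46 ± 0.25) and KIRREL1, an adhesion protein (−1.34 ± 0.18), were each higher in 2 of 24 animals. PTPRF, a receptor tyrosine phosphatase, went from a median of 7.09 CPM to 2.697 CPM (−1.25 ± 0.16). PTPRF is also on the list of 10 genes from earlier results. In the 11 animals with high Day 40 numbers, FAM241B did not pass the test (−0.82, adjusted p = 0.20), and the 2 classes of Day 40 libraries are compared further on.

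Of 6 tested genes of the naive lymphocyte list, whose cells have not met antigen, 4 fell and 0 rose, with a list median of −0.73 on the log2 scale. TCF7, the transcription factor TCF-1 of naive T cells, lies on chromosome 6 at 131551558 to 131584973. It was 309 to 1029 CPM in controls (median 533) and 38.2 to 522 CPM on Day 40 (median 328), and the lowest Day 40 value was that of B2007. All 24 animals were below their own control, by −0.83 ± 0.16 on the log2 scale (adjusted p = 0.000126) and by −0.72 without B2007. LEF1, a partner of TCF7 in the same family, fell in 24 of 24 animals from a median of 232.1 CPM (137.2 to 348) to 145 CPM (15.0 to 254), a log2 change of −0.76 ± 0.15. CCR7, the receptor that brings naive T cells into lymph nodes, changed by −0.74 ± 0.15 with 3 animals higher. IL7R, the receptor for the survival cytokine IL-7, changed by −0.73 ± 0.12 with 1 animal higher. With a GC offset LEF1, TCF7 and IL7R were past both thresholds and CCR7 (−0.58) was not, and with the offset and without B2007 1 gene of the list was called. In the 11 animals with high Day 40 numbers the list median was −0.64 and no gene passed the test (adjusted p for IL7R 0.059 and for TCF7 0.20).

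The T cell list held 17 tested genes, of which 6 fell and 0 rose (list median −0.46). Those 6 genes were CD247 (−0.67), LAT (−0.65), CD28 (−0.64), BCL11B (−0.63), CD5 (−0.61) and CD3E (−0.60). CD247, CD3E and LAT carry the signal of the T cell receptor, CD28 and CD5 tune it, and BCL11B is a transcription factor of the T lineage. Each was higher in 1 to 3 of 24 animals. CD3E was 211 to 687 CPM in controls (median 382) and 36.7 to 459 CPM on Day 40 (median 263). CD3D, another chain of the same receptor, did not pass the test, at medians of 58.8 and 58.4 CPM (−0.13, adjusted p = 0.36). The count for this list depended on the fit, since 2 genes were called without B2007, 1 with a GC offset, 4 with TMM scaling and 0 in libraries with high numbers, while the list median stayed between −0.31 and −0.42 in the first, the second and the last of these fits.

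Of 21 tested B cell genes, 2 fell and 0 rose (list median −0.33). CD79A, the signalling chain of the B cell receptor, was 92.9 to 831 CPM in controls (median 344) and 56 to 524 CPM on Day 40 (median 198.1). Every animal was below its own control, with a log2 change of −0.78 ± 0.10 (adjusted p = 1.68e-06). MS4A1, which encodes CD20, had medians of 245 and 243 CPM and was higher in 13 of 24 animals (0.05 ± 0.13, adjusted p = 0.787). CD79A and MS4A1, genes of the same cell type, therefore did not move alike. With a GC offset 1 gene of the list was called, CD79A (−0.60), and with the offset and without B2007 no gene of the list was past both thresholds. Plasma cell genes did not pass the thresholds in edgeR or in DESeq2, with 0 of 8 called and a list median of −0.05, although 7 of 8 had an unadjusted p under 0.05.

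Cytotoxic lymphocyte genes had a list median of 0.09, and 1 of 17 rose. The gene that rose was GZMK, a granzyme of memory T cells and some natural killer cells. It went from a median of 27.3 CPM (5.18 to 62.8) to 40.1 CPM (13.8 to 87.9) and was higher in 23 of 24 animals, by 0.77 ± 0.11. The rise was 0.90 in libraries with high numbers and 0.56 in the 4 animals with both libraries numbered 0.

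Of 12 tested monocyte genes, 4 rose and 0 fell, with a list median of 0.33, and 4 were called too without B2007, with a GC offset, with TMM scaling and with DESeq2. MS4A7, a membrane protein of monocytes and macrophages, went from a median of 11 CPM (5.09 to 37.6) to 31.9 CPM (7.04 to 62.4) and was higher in 23 of 24 animals, by 1.37 ± 0.18. LYZ, lysozyme, rose by 0.81 ± 0.14 in 21 of 24 animals. CX3CR1, the fractalkine receptor carried by patrolling monocytes and cytotoxic lymphocytes, rose by 0.59 ± 0.18 in 20 of 24 animals and was 0.32 in Day 40 libraries numbered 0. The groups overlapped for MS4A7, LYZ and CX3CR1. CDKN1C and TCF7L2, described above, are also known as genes of the patrolling monocyte in human blood, but they were not on the list.

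Few neutrophil genes passed the test over all animals. Of 13 mature neutrophil genes, 2 rose, S100A8 and S100A9, which encode the subunits of calprotectin. S100A8, on chromosome 1 at 97667429 to 97668469, was 5.47 to 225.03 CPM in controls (median 38) and 12.8 to 428 CPM on Day 40 (median 75.5). It was higher in 16 of 24 animals, with a log2 change of 1.01 ± 0.31 (adjusted p = 0.00937). S100A9 rose from a median of 227.2 CPM to 459 CPM in 15 of 24 animals, by 0.91 ± 0.27. The estimate for S100A8 was 3.05 in the 4 animals with both libraries numbered 0, which were all of 10.7 Gy. It was 1.68 over all 13 Day 40 libraries numbered 0, and 0.24 (adjusted p = 0.74) in the 11 libraries with high numbers. Over the whole list, 8 of 13 genes rose in the Day 40 libraries numbered 0, with a list median of 0.71, and 0 rose in those with high numbers, with a list median of −0.20. Of 13 neutrophil granule genes 1 rose, AZU1, azurocidin, by 0.77 ± 0.14 in 23 of 24 animals. In the granule list 8 of 13 genes rose in libraries numbered 0 and 0 rose in those with high numbers. Over all genes, the libraries numbered 0 had 1643 called (11.9%), 959 higher (6.97%) and 684 lower (4.97%), and those with high numbers 261 (1.9%), 152 higher (1.11%) with 0.793% lower. The test of the difference between these classes, described further on, called 1 of 13 mature neutrophil genes, PROK2, with all animals and 9 of 13 without B2007, and 0 of 13 granule genes in either fit. S100A8 and S100A9 were called in neither fit of that test, whereas both differed between the doses when B2007 was left out. Both neutrophil lists are also given by dose further on.

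The eosinophil list held 6 tested genes, of which 2 rose and 0 fell (list median 0.47). EPX, eosinophil peroxidase, was 0.0863 to 95.8 CPM in controls (median 2.12) and 0 to 80.4 CPM on Day 40 (median 9.54). The ranges were wide and overlapping, 16 of 24 animals were higher, and the log2 change was 1.15 ± 0.39 (adjusted p = 0.017). IL5RA, the receptor for the eosinophil cytokine IL-5, rose in 19 of 24 animals by 0.87 ± 0.25. In the basophil and mast cell list 0 of 6 genes were called in edgeR and in DESeq2 (1 had an unadjusted p under 0.05), and in the platelet list 0 of 16 were called in either tool (0 had an unadjusted p under 0.05 in edgeR, 1 in DESeq2). The platelet median was 0.01, but single animals ranged from −1.62 to 1.39, and B2007 was at 3.88.

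**Figure D3:**
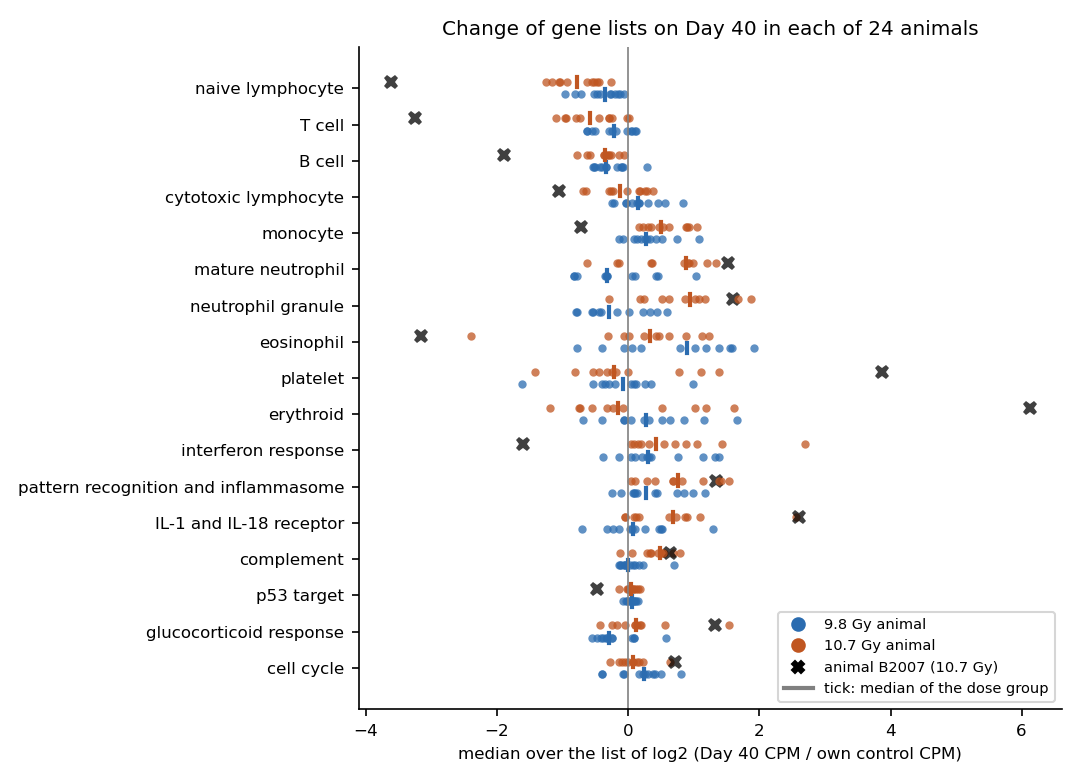
Median log2 change from own control to Day 40 over each of 17 gene lists (horizontal axis), with a dot for each of 24 animals (9.8 Gy blue, 10.7 Gy orange, B2007 a black cross) and a tick at the median of each dose group. The naive lymphocyte list is below 0 in 24 of 24 animals and the pattern recognition list above 0 in 22, while the erythroid list spans −1.19 to 1.66 in 23 animals and reaches 6.13 in B2007.

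Globin RNA rose over all animals, but the median did not rise in the 4 animals with both libraries numbered 0, all of 10.7 Gy. HBB, the beta chain of haemoglobin, lies on chromosome 14 at 63067679 to 63069138. Its level was 3.74 to 336 CPM in controls (median 90.4) and 3.11 to 9399 CPM on Day 40 (median 473), the highest value being that of B2007. It was higher in 20 of 24 animals, with a log2 change of 2.06 ± 0.39 (adjusted p = 0.000132) and 1.94 without B2007. HBA, an alpha chain gene on chromosome 20 with near-identical copies whose reads the counting could split, changed by 1.82 ± 0.40 and was higher in 18 of 24 animals. In the 4 animals with both libraries numbered 0 the direction was the opposite, with log2 changes of −0.54 for HBB and −1.11 for HBA that did not pass the test (adjusted p = 0.518 and 0.355). HBB in those 4 animals had a median of 17.7 CPM in controls and 5.97 CPM on Day 40, and it was lower in B2003 and B2005 and higher in B2503 and B2504. In the 9 animals that went from low numbers to 0 the HBB median went from 86.5 to 479 CPM, and in the 11 with high Day 40 numbers it went from 161 to 669 CPM. The library kit used is known to remove globin RNA along with ribosomal RNA, so that the remaining level depends on how well this step worked, which was not tested.

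The other red cell genes moved less than globin. Of 29 erythroid genes, 5 rose and 0 fell (list median 0.29), the other 3 being AHSP, the chaperone of the alpha globin chain (0.79), RHAG, a Rh complex channel protein (0.63), and HEMGN, a nuclear protein of red cell precursors (0.61). Without B2007, 3 genes were called and the median was 0.16. SLC4A1, the anion exchanger of the red cell membrane, had Day 40 medians of 459 CPM in the animals with both libraries numbered 0, 559 CPM in those that went from low numbers to 0, and 1063 CPM in those with high numbers, against control medians of 864, 353 and 398 CPM. Its ranges overlapped widely in each case.

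Type I interferons act through transcription factors that bind a repeated GAAA element in the promoters of antiviral genes. Of 34 tested genes on the interferon list, 17 rose and 0 fell, with a list median of 0.58 beside −0.03 over all genes. The count was 19 without B2007, 16 with a GC offset and 19 with TMM scaling or DESeq2. In the 11 animals with high Day 40 numbers it was 3, with a list median of 0.45. Single animals differed widely: their list medians ran from −0.38 to 2.703 in 23 animals, B2005 being the highest, and B2007 was at −1.60. In the 4 animals with both libraries numbered 0 the list median fell from 0.98 to 0.40 when B2005 was left out.

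IFI44L, an antiviral gene of the IFI44 family, was 1.13 to 22.2 CPM in controls (median 2.13) and 1.94 to 59.2 CPM on Day 40 (median 5.23), and it was higher in 22 of 24 animals by 1.31 ± 0.30 (adjusted p = 0.000822). HERC5, the enzyme that attaches the ubiquitin-like protein ISG15 to its targets, rose in 20 of 24 animals from a median of 11.7 CPM (3.41 to 49) to 22.5 CPM (5.33 to 310), by 1.05 ± 0.26. IFIT1, which binds foreign RNA lacking a mature cap, went from 43.9 CPM (20.9 to 121.8) to 86.4 CPM (11.1 to 356) in 21 of 24 animals, by 1.02 ± 0.17 (adjusted p = 2.5e-05). The control and Day 40 ranges overlapped for all 3 genes, and most animals moved up from their own level. IFI44 (1.03), IFIT3 (1.01), CMPK2 (0.99), IFI6 (0.97) and IFIT2 (0.88) also rose. MX1 rose by 0.59, and IFIT1 was one of the 3 genes that passed in libraries with high numbers (1.00, adjusted p = 0.045).

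The promoters of these genes are shown because the interferon element can be read in them. The element, searched as GAAA, any 2 bases and GAAA again, was looked for on both strands in the 250 bases before each annotated gene start (RefSeq, Mmul_10). It stood in 390 of 13741 promoters (2.84%), in 11 of 34 promoters of the interferon list (32.4%), and in 8 of the 17 genes of that list that rose (47.1%). Over all genes it stood in 33 of 559 promoters (5.90%) of genes higher on Day 40 and in 5 of 389 (1.29%) of genes lower. IFI44L and IFIT1 hold no match in this window. A match is a description of letters and not a site shown to be bound. The promoters of HERC5 (chr5:86844784-86845033, + strand), IFI44 (chr1:145763683-145763932, − strand), IFI6 (chr1:197051336-197051585, + strand) and IFIT2 (chr9:89563210-89563459, + strand) are given 5′ to 3′ along the gene, with the matches in capitals (TTTC marks a match on the other strand, and neighbouring matches overlap in HERC5).
HERC5: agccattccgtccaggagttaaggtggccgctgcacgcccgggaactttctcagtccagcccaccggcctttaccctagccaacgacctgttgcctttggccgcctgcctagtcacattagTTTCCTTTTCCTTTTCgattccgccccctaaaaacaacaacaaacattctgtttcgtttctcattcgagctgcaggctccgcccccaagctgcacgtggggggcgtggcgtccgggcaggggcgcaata
IFI44: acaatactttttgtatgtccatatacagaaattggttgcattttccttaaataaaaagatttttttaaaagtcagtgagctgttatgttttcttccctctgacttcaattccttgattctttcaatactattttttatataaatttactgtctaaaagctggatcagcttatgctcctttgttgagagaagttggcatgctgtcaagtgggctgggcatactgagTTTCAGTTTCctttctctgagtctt
IFI6: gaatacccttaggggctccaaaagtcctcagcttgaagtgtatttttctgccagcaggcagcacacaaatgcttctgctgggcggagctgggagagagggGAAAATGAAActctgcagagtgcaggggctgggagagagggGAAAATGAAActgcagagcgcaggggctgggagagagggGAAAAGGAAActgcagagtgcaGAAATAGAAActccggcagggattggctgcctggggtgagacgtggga
IFIT2: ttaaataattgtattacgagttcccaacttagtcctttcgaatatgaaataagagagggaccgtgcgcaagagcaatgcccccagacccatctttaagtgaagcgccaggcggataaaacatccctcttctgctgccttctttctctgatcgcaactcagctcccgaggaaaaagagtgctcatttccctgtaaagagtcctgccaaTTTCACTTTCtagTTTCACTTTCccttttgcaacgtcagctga
The match nearest to the gene start begins 25 bases before it in IFI44, 30 in IFIT2 and 48 in IFI6, and IFI6 holds 4 matches.

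Of 18 tested genes of pattern recognition and the inflammasome, which sense microbial products and damaged cells, 8 rose and 0 fell (list median 0.57). LY96, the co-receptor MD-2 that binds endotoxin for TLR4, went from a median of 5.79 CPM (1.296 to 13.9) to 12 CPM (5.44 to 18.7) in 21 of 24 animals, by 0.98 ± 0.15. CLEC7A, the receptor dectin-1 for fungal glucan, went from 26.1 CPM (9.01 to 155) to 49.2 CPM (18.18 to 194.3) in 23 of 24 animals, by 0.95 ± 0.12. TLR1, which senses bacterial lipopeptides together with TLR2, went from 49.4 CPM (19.2 to 154) to 88.1 CPM (48.1 to 172) in 23 of 24 animals, by 0.89 ± 0.11 (adjusted p = 1.28e-06). TLR8 rose by 0.76, and PYCARD, TLR5, TLR6 and IL18 also passed. The list had 14 of 18 genes higher in Day 40 libraries numbered 0 (median 0.96) and 1 of 18 in those with high numbers (median 0.19). CLEC7A and TLR1 rose by less in the latter, by 0.59 and 0.51.

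Of 8 tested genes of IL-1 and IL-18 receptors, 3 rose and 0 fell (list median 0.45). IRAK3, a kinase relative that dampens signalling from Toll-like and IL-1 receptors, went from a median of 60.5 CPM (27.8 to 263) to 114.9 CPM (72.6 to 627) in 23 of 24 animals, by 1.07 ± 0.16. IL1RN, the secreted antagonist of the IL-1 receptor, went from 11.9 CPM (4.33 to 37.7) to 17.2 CPM (8.97 to 52.2) in 24 of 24 animals, by 0.78 ± 0.12. IL1RL1, the receptor ST2 for IL-33, rose in 18 of 24 animals by 0.85 ± 0.33 (adjusted p = 0.0388), its highest Day 40 level being 383 CPM against 22.4 CPM in the highest control. Libraries numbered over 190 had 0 of 8 genes past the thresholds and a list median of 0.08, while IL1RN stood at 0.49 there.

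C3AR1 and C5AR1, 2 receptors for complement fragments on myeloid cells, rose, alone among 18 complement genes (list median 0.24). Other receptors for complement fragments on the list, among them C5AR2 and CR1, were not called. C3AR1, the receptor for C3a, lies on chromosome 11 at 11457209 to 11462824. It was 4.4 to 23 CPM in controls (median 10.3) and 12 to 131.8 CPM on Day 40 (median 24.7). All 24 animals were above their own control, by 1.38 ± 0.15 (adjusted p = 2.21e-07), and the change was 1.05 in libraries with high numbers and 1.69 in those numbered 0. C5AR1, the receptor for C5a, rose in 22 of 24 animals from a median of 128.4 CPM (61.1 to 364) to 189 CPM (90.6 to 664), by 0.69 ± 0.11, and its change was 0.36 in libraries with high numbers. TMM scaling and DESeq2 each called 3 complement genes.

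Targets of p53, which is activated by DNA breaks, showed little change at this time. Of 26 tested genes 1 rose, GDF15, a stress cytokine of the TGF-beta family. GDF15 went from a median of 2.76 CPM (1.38 to 5.18) to 5.11 CPM (1.86 to 13.2) in 22 of 24 animals, by 0.87 ± 0.13 (adjusted p = 1.38e-05). CDKN1A, the p53-induced inhibitor of the cell cycle, had an adjusted p of 0.000639 but stayed under the fold limit (0.49 ± 0.11), and the list median was 0.07.

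Genes that respond to glucocorticoids did not move together over all animals. DDIT4, an inhibitor of mTOR signalling, was the only one of 20 past the thresholds, and it fell from a median of 79.9 CPM (39.6 to 142) to 45.6 CPM (20.3 to 209), with 3 animals higher and a log2 change of −0.82 ± 0.14. In the 4 animals with both libraries numbered 0 the change was −0.12. FKBP5, a chaperone that steroids induce, was 144 to 449 CPM in controls and 85.7 to 1347 CPM on Day 40 and was higher in 2 animals (−0.48 ± 0.16). TSC22D3 was at −0.08. The list median was −0.18 at 9.8 Gy and 0.30 at 10.7 Gy. In edgeR the test of the dose difference called 0 of 20 genes, with 6 at an unadjusted p under 0.05. List medians of single animals ran from −0.56 to 1.54, B2003 being the highest, and B2007 was at 1.33.

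In the cell cycle list 5 of 30 genes rose and 0 fell (list median 0.11). NUSAP1, a spindle protein, rose by 0.79 ± 0.17, BUB1B, a spindle checkpoint kinase, by 0.69, CCNE2, a cyclin of S phase entry, by 0.69, KIF11, a spindle motor, by 0.66 and CDK1, the mitotic kinase, by 0.64. NUSAP1 reached 118.7 CPM in 1 Day 40 library against 11.1 CPM in the highest control, and without B2007 3 genes of the list were called. With a GC offset 2 were called.

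The remaining lists held few called genes. In the TGF-beta and matrix list 1 of 15 genes rose, TIMP1, an inhibitor of matrix metalloproteinases. TIMP1 was higher in 24 of 24 animals, from a median of 16 CPM (9.51 to 27.1) to 27.7 CPM (16.6 to 78.3), by 0.79 ± 0.10. Of 14 immediate early genes ATF3 rose by 0.99 and IER3 by 0.92, and DUSP2, a phosphatase of activated lymphocytes, changed by −0.65. Of 14 genes of cytokine feedback 1 rose, JAK2 (0.59), and it was not past the fold limit without B2007. Of 19 genes of hypoxia and glycolysis 0 were called in edgeR or DESeq2, with 6 at an unadjusted p under 0.05 in edgeR. Of 4 tested genes of lung, stroma and endothelium 1 rose, TEK, the angiopoietin receptor, from a median of 0.782 to 1.34 CPM. Ribosomal protein genes had 5 of 73 higher and 0 lower (list median 0.06), and oxidative phosphorylation genes had 4 of 72 higher and 1 lower, led by COX7B (1.13). Many near-identical copies of ribosomal protein genes exist, and their reads may be split.

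**Figure D4:**
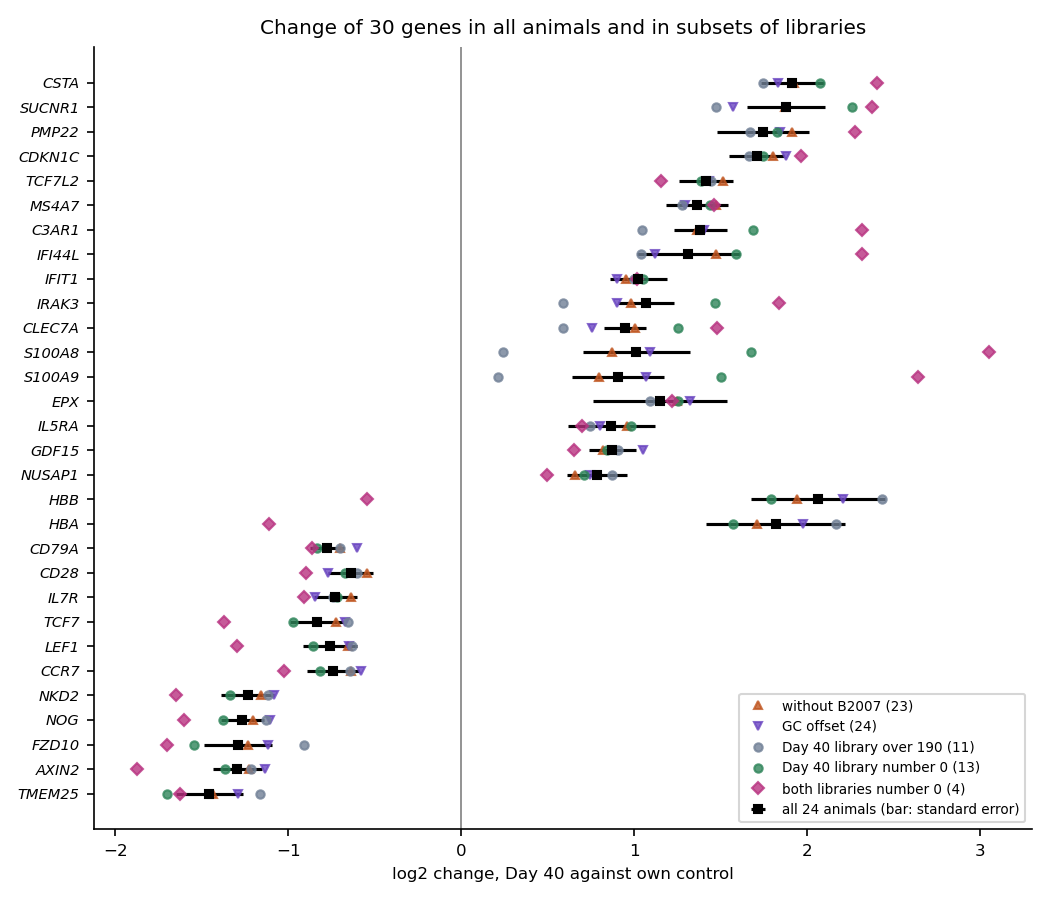
Log2 change from own control to Day 40 (horizontal axis) of 30 genes, in all 24 animals (black square with SE), without B2007 (orange triangle), with a GC offset (purple), in the 11 animals with high Day 40 numbers (grey), in the 13 with Day 40 number 0 (green) and in the 4 with both libraries numbered 0 (pink). CDKN1C (1.66 to 1.97) and IFIT1 (0.90 to 1.05) lie close together in all 6 estimates, AXIN2 spreads from −1.14 to −1.87, S100A8 spreads from 0.24 to 3.05, and HBB lies below 0 in the 4 animals with both libraries numbered 0.

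The difference between the classes of Day 40 libraries was tested in the 20 animals whose control had a low number. The change from control differed for 40 genes (0.291%), of which 36 were higher in libraries numbered 0 (0.262%) and 4 were lower (0.0291%). Without B2007, whose Day 40 library had a high number, 436 genes differed (3.17%), 354 higher (2.57%) and 82 lower (0.596%). They included 11 of 18 genes of pattern recognition, 9 of 13 of mature neutrophils and 4 of 8 of IL-1 and IL-18 receptors, all higher in libraries numbered 0, and 5 of 17 T cell genes, all lower. With a GC offset, in the fit of all 20 animals that called 40 genes without it, 0 genes differed. The offset was not tried for this difference with B2007 left out, so the 436 genes have no such fit beside them. The animals of the classes are different animals, and the library class and the animals' own state cannot be told apart.

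At 9.8 Gy 847 genes differed from control (6.16%), 573 higher (4.17%) and 274 lower (1.99%), and at 10.7 Gy 1480 (10.8%), 691 higher (5.03%) and 789 lower (5.74%). The 4 animals with both libraries numbered 0 were all in the 10.7 Gy group, and leaving them out left 250 called genes at that dose. Without B2007 the 10.7 Gy group had 1211 called genes (8.81%), 715 higher (5.2%) and 496 lower (3.61%). The split between directions at 10.7 Gy also moved with the fit, with 844 higher and 586 lower under TMM scaling, 1047 and 513 in DESeq2, and 69.1% of 1237 genes higher with a GC offset. In naive lymphocyte genes, 0 of 6 fell at 9.8 Gy and 4 of 6 at 10.7 Gy, with list medians of −0.48 and −0.996. In neutrophil granule genes, 1 rose and 2 fell of 13 at 9.8 Gy, and 9 rose at 10.7 Gy. Of 13 mature neutrophil genes, 0 rose at 9.8 Gy and 6 at 10.7 Gy, with list medians of −0.12 and 0.57. Interferon genes rose at both doses, 13 of 34 at 9.8 Gy and 8 of 34 at 10.7 Gy, and 7 of 29 erythroid genes rose at 9.8 Gy against 0 at 10.7 Gy. The erythroid list medians were nonetheless close, 0.39 at 9.8 Gy and 0.36 at 10.7 Gy. At 10.7 Gy the SD of the animals' erythroid medians was 1.96 with B2007 and 0.91 without. These counts side by side are no test of a dose difference.

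The test of the dose difference itself called 5 genes (0.0364%), 4 with a more positive change at 10.7 Gy (0.0291%) and 1 with a more negative one (0.00727%), while 2527 had an unadjusted p under 0.05. DYSF, dysferlin, which acts in membrane repair, had medians of 42.2 CPM in controls and 32.6 CPM on Day 40 at 9.8 Gy, with 5 of 12 animals higher. At 10.7 Gy the DYSF medians were 24.7 and 88.7 CPM, with 11 of 12 animals higher, and the log2 changes of the doses differed by 2.07 ± 0.38 (adjusted p = 0.0271). HK3, a hexokinase of myeloid cells, was higher in 8 of 12 animals at 9.8 Gy and in 12 of 12 at 10.7 Gy (difference 1.22 ± 0.21). CAMP, the neutrophil granule peptide cathelicidin, was higher in 1 of 12 at 9.8 Gy and in 9 of 12 at 10.7 Gy (1.23 ± 0.23). DHRS7, a short-chain dehydrogenase, differed by 1.00 ± 0.18. TLR3, the receptor for double-stranded RNA, went the other way, higher in 11 of 12 animals at 9.8 Gy and lower in 11 of 12 at 10.7 Gy (−1.55 ± 0.26). Without B2007, 43 genes differed between the doses (0.313%), 40 of them more positive at 10.7 Gy (0.291%) and 3 more negative (0.0218%). Among the 40 were S100A8 (1.89), CD177, a neutrophil surface protein (1.66), S100A9 (1.62), and again DYSF, HK3 and CAMP. Within the 11 animals with high Day 40 numbers, and within the 9 that went from low numbers to 0, edgeR's test of the dose difference called 0 genes, with 627 and 883 at an unadjusted p under 0.05. The 5 genes kept their sign there, with differences of 1.63 and 2.03 for DYSF, 0.99 and 1.00 for CAMP, and −1.25 and −1.56 for TLR3, and with a GC offset 5 of 5 were called.

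Females and males did not differ in any gene at the thresholds (0 of 13751, 0%, in edgeR and in DESeq2), and 190 genes had an unadjusted p under 0.05 in edgeR. Without B2007, a male, 83 genes differed (0.604%), 82 of them more positive in females (0.596%) and 1 more negative (0.00727%). They included 5 of 29 erythroid genes, and that list had a median difference of 1.08. TSPO2, a protein of maturing red cells, differed by 1.76, HBM, a globin, by 1.47, DMTN, a protein of the red cell skeleton, by 1.39 and AHSP by 1.21.

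Day 30 and Day 60 samples of the same animals place Day 40 in time. These comparisons hold no control sample, but they share the Day 40 samples with the comparison above. Between Day 30 and Day 40, 682 genes differed (4.96%), 216 higher (1.57%) and 466 lower (3.39%) on Day 40. Without B2007 the count was 803 (5.84%), 264 higher (1.92%) and 539 lower (3.92%). Red cell genes fell, 18 of 29 lower (list median −0.72), while HBB (3.66 ± 0.53) and HBA (3.23 ± 0.52) rose in the fit of all animals. In the 4 animals with control and Day 40 libraries numbered 0, the HBB median instead fell from 35.2 to 5.97 CPM. The HBA median of these 4 animals fell from 4.02 to 1.21 CPM. For both genes the median rose in the 9 animals that went from low numbers to 0 and the 11 with high numbers. All 24 Day 30 libraries were numbered 0. TSPO2 had a median of 7.21 CPM in controls, 26.7 CPM on Day 30 (2.08 to 368) and 7.76 CPM on Day 40 (0.531 to 72.5), a log2 change of −1.93 ± 0.28 between the later days (adjusted p = 1.90e-05). FN3K, fructosamine 3-kinase, changed alike, with medians of 101.4 CPM on Day 30 and 27.6 CPM on Day 40 (−1.94 ± 0.29). HDAC11, a histone deacetylase (−1.71 ± 0.30), and PRSS47 (−1.67 ± 0.29) followed.

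White cell genes also moved between Day 30 and Day 40. S100A9 rose from a median of 135.9 CPM (13.9 to 751) to 459 CPM, by 1.55 ± 0.23, and S100A8 by 1.3 ± 0.25. C3AR1 rose by 1.00 ± 0.13 and TLR1 by 0.79 ± 0.11. In counts of lists, 6 of 18 pattern recognition genes, 3 of 12 monocyte genes and 4 of 34 interferon genes rose. CDKN1C already had a median of 59.2 CPM on Day 30 and did not pass the test (0.24 ± 0.15), and for CSTA the median was 2.15 CPM on Day 30 (0.52 ± 0.25). TMEM25 (−1.58 ± 0.24) and AXIN2 (−0.69 ± 0.13) fell between these days, TMEM25 from a median of 3.145 CPM on Day 30.

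By Day 60, 21 of the animals were drawn, and 366 genes differed from Day 40 (2.66%), with 0.974% of the tested genes higher and 1.69% lower on Day 60. Interferon genes came down, with 18 of 34 lower, 0 higher and a list median of −0.63. HERC5 fell from a median of 22.5 CPM to 7.88 CPM (3.06 to 46.4), by −1.50 ± 0.22, and IFIT1 fell from 86.4 to 34.5 CPM, by −1.14 ± 0.23. HBB fell to a median of 9.73 CPM (−4.63 ± 0.63) and HBA changed by −3.83 ± 0.35. The 4 highest HBB levels of Day 60, 139.8 CPM in B1505, 149.6 CPM in B1506, 226.3 CPM in B1003 and 297 CPM in B1002, were those of the 4 Day 60 libraries with high numbers. TM4SF19, a tetraspanin relative of macrophages, changed by −1.40 ± 0.23. CDKN1C fell to a median of 29.2 CPM (−1.09 ± 0.18). In the opposite direction, TMEM25 rose by 1.27 ± 0.27 and DDIT4 by 0.96 ± 0.19. In the cell cycle list 9 of 30 genes were lower on Day 60. TCF7 had a median of 381 CPM on Day 60 and did not differ from Day 40 in the test (0.09 ± 0.11). Only 11 genes passed in the 9 animals whose Day 40 and Day 60 libraries were both numbered 0, and in them the interferon list had 0 of 34 called in edgeR, 12 of 34 at an unadjusted p under 0.05 and a median of −0.40.

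**Figure D5:**
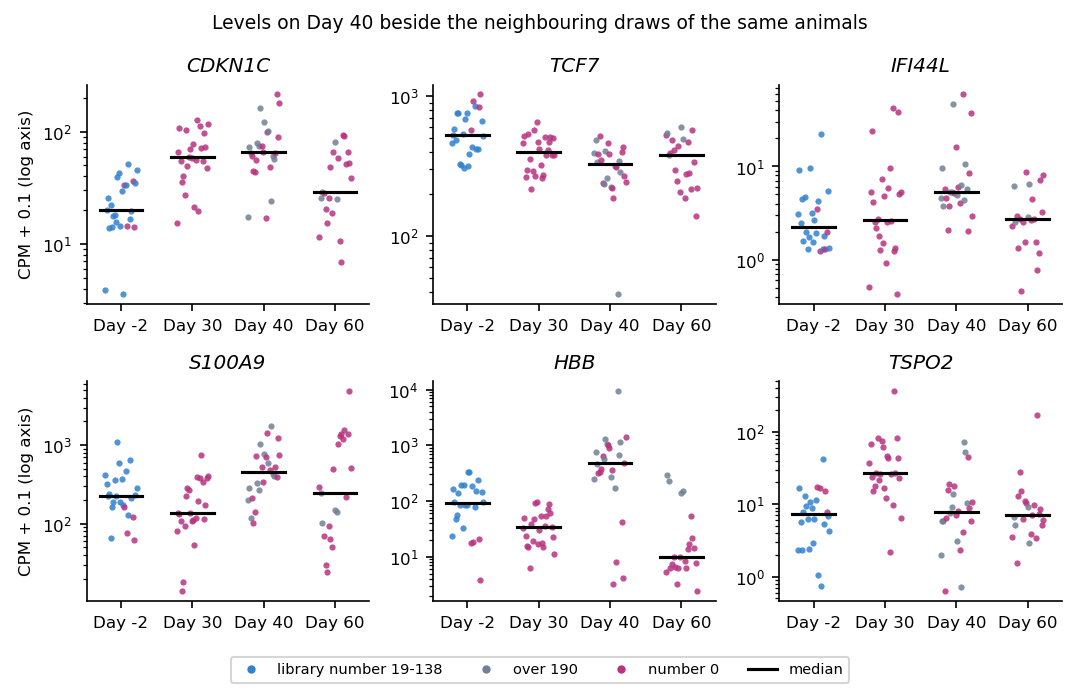
CPM (log axis) of CDKN1C, TCF7, IFI44L, S100A9, HBB and TSPO2 on Day −2, Day 30, Day 40 and Day 60 in the same animals, a dot per library coloured by library number class and a black line through the medians. The median of CDKN1C goes 19.9, 59.2, 65.4 and 29.2, that of TSPO2 7.21, 26.7, 7.76 and 6.97, and that of HBB 90.4, 33.5, 473 and 9.73.

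Of the 3 animals last drawn on Day 40, B2007 had the widest changes. Its median log2 change from own control was 6.13 over the erythroid list, 3.88 over the platelet list, −3.25 over the T cell list, −3.62 over the naive lymphocyte list, −3.16 over the eosinophil list and −1.60 over the interferon list. AHSP went from 15.3 to 1563 CPM in this animal. B2005 had the highest interferon median (2.703) and B2503 the highest complement median (0.79). The 3 animals therefore did not change alike. The test of these 3 against the other 9 animals of 10.7 Gy called 0 genes in edgeR (0%) and 10 in DESeq2, with 1895 genes at an unadjusted p under 0.05 in edgeR. The result hung on single animals. Leaving out B2005 called 1514 genes in edgeR, while leaving out B2007 or B2503 called 0. Without B2007 363 genes had an unadjusted p under 0.05 in edgeR, and without B2503 4156.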

How the data were processed

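Whole blood RNA was measured in control and Day 40 samples of 24 animals. The deposited gene counts were made by the authors with cutadapt 2.10, STAR 2.7.6a and Subread 2.0.1 on Mmul_10, per the labels; the strand setting is not given in the sources used here. A deposited table of log2 values, normalized by the authors, was used only as an alternative (limma 3.58.1, 16730 genes). Genes with 3 counts in 80% of 304 samples were kept (13751 of 21070). Counts were scaled by the upper quartile and tested with edgeR 4.0.16 (quasi-likelihood, R 4.3.3), with a block for each animal and p-values adjusted by Benjamini-Hochberg over all tested genes; a call needed an adjusted p of 0.05 and a fold of 1.5. Errors of log2 changes are standard errors. CPM values share 1 scale over control, Day 30, Day 40 and Day 60.

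Pairing came from the animal in the sample names. A Day 40 sample's deviation from the group mean correlated best with its own control in 21 of 24 animals (median r = 0.52 for own pairs, −0.03 for others).

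Alternatives were TMM, DESeq2 1.42.0, other filters, no block, library number classes and each animal left out. A GC offset (lowess, span 0.3), B2007 left out of further fits and B2005 left out of the animals with both libraries numbered 0 were chosen after seeing the data. Members and gene lists were chosen with earlier results of these data known. Named genes were the 8 highest and 8 lowest called genes with a symbol that moved alike in at least 22 of 24 animals, up to 4 called genes of each list and its first 2, and up to 4 in each direction for other comparisons. CD5, CDK1, HEMGN, MX1, TLR5, TLR6, PYCARD, IL18, CMPK2, IFI6, IFIT3 and SLC4A1, and the genes named for fits without B2007 were added after their values were seen. Lists were described by counts and medians with no set test. The fits were tested on simulated data. Depth (6133835 to 14609879 counts) limits genes of low level. Some items are not reported here.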

Additional observations from a re-analysis of the deposited data

Results flagged for a closer look

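In groups of 6 animals of 1 dose and sex, the medians of 27 lists were searched in each of 4 groups for a sample far from the others, and 14 stood out, 8 of them B2007; chance gives about 1 in 20. In B2007 the median log2 change was −1.89 for the B cell list, −3.25 for T cell, −3.62 for naive lymphocyte, 6.13 for erythroid, −0.47 for p53 target, −1.39 for immediate early, 1.43 for ribosomal protein and 0.73 for oxidative phosphorylation. B1506 stood out with −0.72 for plasma cell, 0.70 for complement and 0.27 for TGF-beta and matrix genes. The others were B2003 with 0.41 for lung, stroma and endothelium, B1005 with 0.54 for cytokine feedback and B2504 with −0.19 for TGF-beta and matrix.

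The change from control differed between doses (10.7 Gy minus 9.8 Gy, log2) for DYSF by 2.07, CAMP by 1.23, HK3 by 1.22, DHRS7 by 1.00 and TLR3 by −1.55.

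The change from control differed between Day 40 libraries numbered 0 and those with high numbers for 40 genes, of which the 4 highest and the 4 lowest are given. PLN (1.13), PROK2 (1.13), TLR4 (1.03) and CREB5 (1.03) were more positive in libraries numbered 0. SNX22 (−1.16), SLC38A5 (−0.65), HMG20B (−0.60) and C11H12orf57 (−0.59) were more negative there. TLR4 is the receptor for endotoxin and PROK2 a chemokine-like peptide of neutrophils. The cause was not tested.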

How the results depend on the processing

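The count of 951 genes on Day 40 was 1643 in Day 40 libraries numbered 0, 261 in those with high numbers, 6031 with no fold limit and 150 in animals with both libraries numbered 0 without B2005 (815 with it). Leaving out 1 animal gave 795 (B2007) to 1040, and no replicate block 1160, with 68.3% higher against 58.8% with the block. At 9.8 Gy the 847 genes became 477 with no replicate block and 559 with a GC offset. At 10.7 Gy the 1480 became 250 with low-numbered controls only and 1211 without B2007. The 5 genes differing by dose became 38 (TMM), 267 (DESeq2), 21 (no filter), 50 (GC offset), 43 (without B2007) and 0 within libraries with high numbers and within those that went from low numbers to 0. The 0 genes differing by sex became 83 without B2007. The 40 genes differing by library class became 7 (TMM), 74 (DESeq2), 1 (no filter), 0 (GC offset) and 436 (without B2007). Day 40 against Day 30 stayed within 1.5 times of 682 in every setting tried, at 803 without B2007. Day 60 against Day 40 went from 366 to 11 in libraries numbered 0, and from 36.6% to 56.8% higher with no replicate block. The 0 genes of the animals last drawn on Day 40 became 10 (DESeq2) and 0 to 1514 leaving out each of the 3.

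Turns of direction were counted only for genes called in the main fit or in the alternative. In the 4 animals with both libraries numbered 0 the direction turned for HBA (−1.11), HBB (−0.54) and NDUFA3 (−0.073), and without B2005 for HBA (−0.90), HBB (−0.27) and DDIT4 (0.28). Over the genes named for Day 40 against control, 1650 alternative values were counted as unchanged. These kept direction and call, or belonged to genes called in neither fit and stayed near the main value, whatever their sign. Near meant within the SE times the square root of the number of animals. Another 208 lost the call, 31 gained it, 8 of genes called in neither fit moved further, and 6 reversed. The cause was not tested.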
